A study of Mus musculus with 10 samples.

Results

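White adipocytes store fuel as triglyceride in a single large droplet, and 36 genes that these cells use for storing, making and releasing fat were followed here in mouse popliteal lymph node libraries. The genes were taken by symbol from a deposited table of 54987 genes, and all 36 were found, 1 row each. They comprise 4 hormones and secreted proteins, 3 transcription factors and receptors, 3 droplet coat proteins, 5 genes of uptake and binding, 7 of fatty acid synthesis, 5 of triglyceride assembly, 5 of lipolysis and 4 others that are abundant in fat. The mice were male BALB/c of 6 to 8 weeks, and RNA was sequenced in 10 libraries labelled day 15. Acu mice (3 libraries, numbered 6, 28 and 4) were given 0.1 ml of complete Freund's adjuvant under the skin of the right hind paw, and acupuncture, at the point ST36 per the series title. AIA mice (4 libraries, 5, 10, 31 and 38) were given the same adjuvant without acupuncture, as a model of arthritis. Control mice (3 libraries, 15, 16 and 17) were given 0.1 ml of saline in place of the adjuvant. The labels do not state if a library stands for 1 mouse or for pooled nodes, and p-values measure only the spread between these libraries. A sham acupuncture group named in the protocols was not analysed here.

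The popliteal node lies in a pad of white fat behind the knee. Adipocytes take up fatty acids that lipoprotein lipase frees from blood lipoproteins, make more from glucose under the control of insulin, and join them to glycerol as triglyceride. Perilipins coat the droplet and hold back the lipases until catecholamines, partly from sympathetic nerves, call for fuel. PPARgamma and C/EBPalpha are the transcription factors that establish and keep this program, and the cells secrete adiponectin and leptin.

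Of the 10 libraries 3 stood apart from the node label. Those labelled Acu 4 and Control 17 held Xist, the RNA that silences an X chromosome in females, at 60.1 and 87.2 FPKM, against at most 0.128 FPKM in the other 8. They also held the decidual hormone Prl8a2 at 3901 and 10739 FPKM, and their 8 B cell markers summed to only 4.57 and 1.90 FPKM. Control 15 had B cell markers at 4.88 FPKM and T cell markers at 3.52 FPKM in sum. The remaining 7 libraries had B cell markers between 951 and 1298 FPKM and T cell markers between 225.5 and 516 FPKM in sum. Control 16 was thus the only Control library with lymphocyte markers at the level of the Acu 6, Acu 28 and AIA libraries. Reads recovered from the table numbered 13269763 to 18926894 per library. Each comparison was fitted with all 10 libraries and again with the 8 other than the libraries labelled Acu 4 and Control 17.

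The fat genes filled a large part of the RNA in both Control 15 and Control 16 and little of it anywhere else. FPKM, fragments per kilobase of gene scaled by a factor for each library, summed over the 36 genes to 624 in Acu 6 and 767 in Acu 28. The AIA sums were 215 in AIA 5, 412 in AIA 10, 784 in AIA 31 and 356 in AIA 38, against 48022 in Control 15 and 13688 in Control 16. As a share of all FPKM in the library, that was 0.182% and 0.212% in Acu 6 and Acu 28, 0.0378% to 0.165% in AIA, and 10.5% and 3.21% in Control 15 and Control 16. The library labelled Acu 4 had 309 FPKM and the library labelled Control 17 had 470 FPKM. Control 17 thus did not share the level of the other Control libraries, and 8 of the 36 genes were listed at 0 in it, among them Adipoq, Lep, Retn, Cfd, Plin1 and Cidec. In bulk RNA, fewer fat cells in a library and less of each RNA per fat cell cannot be told apart.

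**Figure D1:**
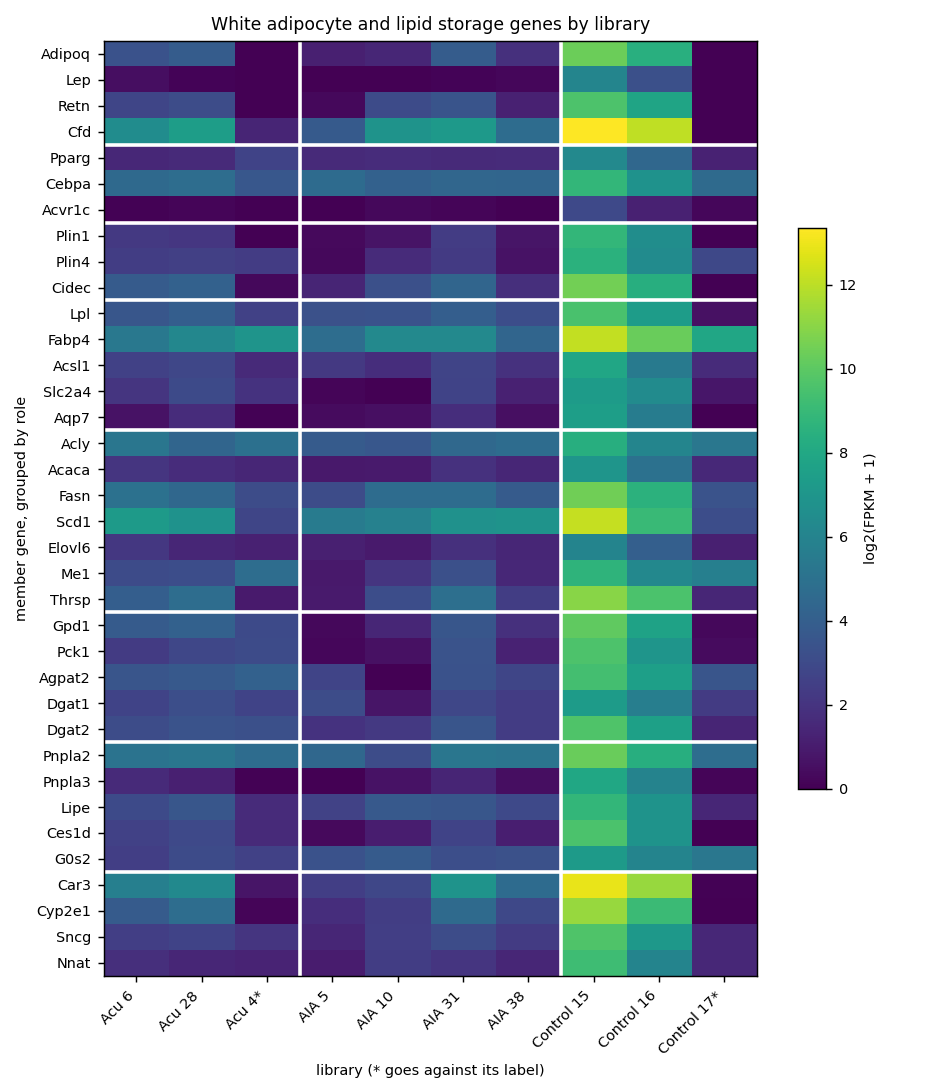
Level of each of the 36 fat genes (rows, grouped by role, white lines between roles) in each of the 10 libraries (columns), as log2(FPKM + 1) on a colour scale. Control 15 and Control 16 form the bright columns for every gene, the libraries marked with a star are those labelled Acu 4 and Control 17, and AIA 31, Acu 6 and Acu 28 are a little brighter than AIA 5.

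Markers of several other tissues moved with the fat genes, while the summed macrophage markers, mostly Lyz2, moved the other way and those of stroma were mixed. Counts of markers called are from limma in the fit of 8 libraries, where 9.2% of all genes tested were called lower in AIA, 4.29% were called higher, and 21.2% stood lower in AIA without overlap. The 10 skeletal muscle markers summed to 945 and 2996 FPKM in Acu 6 and Acu 28, to 12.9, 223, 1616 and 302 FPKM in AIA 5, 10, 31 and 38, and to 2800 and 11488 FPKM in Control 15 and 16. All 10 stood lower in AIA than in Control without overlap, and 3 of them passed the test. The 8 brown fat markers summed to 37.97 and 91.0 FPKM in Acu 6 and Acu 28, to between 1.41 and 68.0 FPKM in AIA, and to 1298 and 678 FPKM in Control 15 and 16. The largest part of these sums in Acu and Control was Cox8b, at 24.8 and 61.3 FPKM in Acu 6 and Acu 28, and 684 and 439 FPKM in Control 15 and 16. The part of muscle in these sums was not tested. All 4 brown fat markers that could be tested fell in AIA. Ucp1, the uncoupling protein of thermogenic fat, had 1.84 and 1.83 FPKM in Acu 6 and Acu 28, 0, 1.24, 1.17 and 0.144 FPKM in AIA 5, 10, 31 and 38, and 199 and 27.4 FPKM in Control 15 and 16. Cidea, a droplet protein of brown and beige fat, fell by 6.44 (SE 0.63, limma adjusted p = 0.00276), whereas Zic1, a defining gene of classical brown fat, was listed at 0 in all 10 libraries. Of the 7 endothelial markers 5 fell in AIA, and their sum was 66.1 to 115 FPKM in AIA against 465 and 217 FPKM in Control 15 and 16. The 6 nerve markers summed to 8.10 to 13.3 FPKM in AIA against 249 and 96.4 FPKM in Control 15 and 16. Hepatocyte markers, which would share genes such as Cyp2e1 and Pck1 with fat, summed to at most 14.8 FPKM in any library, and those of sebaceous glands to at most 5.56 FPKM. The 8 macrophage markers summed to 1987 and 3029 FPKM in Acu 6 and Acu 28, to 2099 to 3482 FPKM in AIA, and to 596 and 547 FPKM in Control 15 and 16, and of 7 tested 2 rose in AIA and none fell. Lyz2, the lysozyme of myeloid cells, rose by 2.46 (SE 0.58, limma adjusted p = 0.0296), and the growth factor receptor gene Csf1r rose by 1.27 (SE 0.31, limma adjusted p = 0.0329). Lyz2 alone had 2939, 1986, 1739 and 2101 FPKM in AIA 5, 10, 31 and 38, and 344 and 436 FPKM in Control 15 and 16. Adgre1 stood at −0.45 (SE 0.52, limma adjusted p = 0.609), and its groups overlapped. Of the 8 stroma and preadipocyte markers 4 stood above 0 and 4 below, with a median of −0.09, and the 2 that passed, Pi16 and Lum, fell. Ly6a had the largest estimate of that list, 2.52 (SE 0.76, limma adjusted p = 0.0620). The groups cannot be told apart from this tissue content. Every Control library with a node or fat profile is high in fat, brown fat, nerve and endothelial genes together. Muscle markers in Control 15 and 16 stood above those in AIA, but their sum in Control 15, 2800 FPKM, was below that in Acu 28, 2996 FPKM.

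**Figure D2:**
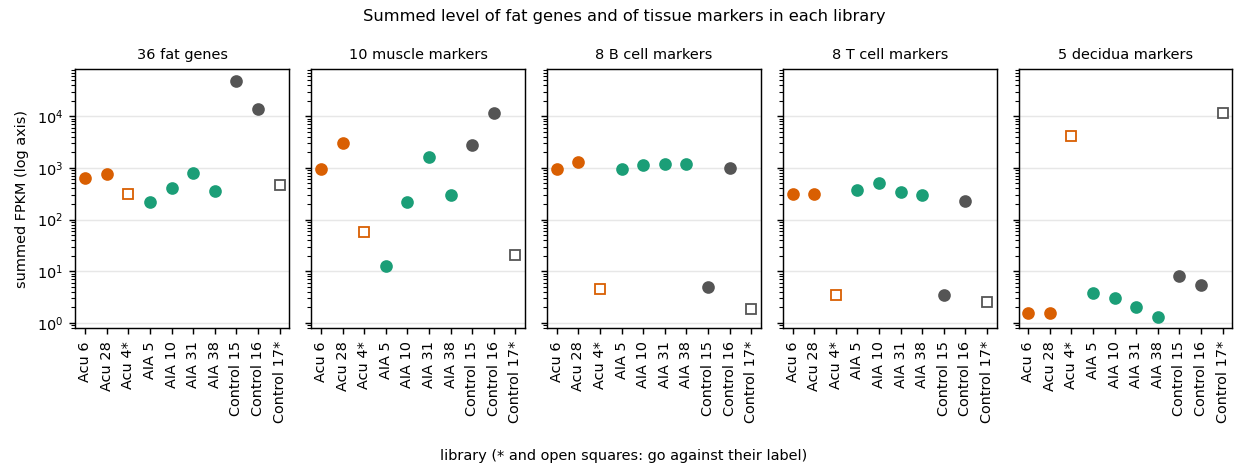
Summed FPKM (log axis) in each library for the 36 fat genes and for 10 skeletal muscle, 8 B cell, 8 T cell and 5 decidua markers, with open squares for the libraries labelled Acu 4 and Control 17. Fat genes reach 48022 in Control 15 and 13688 in Control 16 and stay at or below 784 elsewhere, while B cell markers are near 1000 in all libraries but Control 15 and the libraries labelled Acu 4 and Control 17.

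The comparison of AIA with Control was set up for the effect of the adjuvant on the node that drains the paw. Its Control libraries in the fit of 8 are Control 16 and Control 15, and the latter had almost no lymphocyte markers. The estimates of that fit are therefore not of the node alone. In the fit of 8 libraries all 34 fat genes that could be tested fell in AIA, by between 3.06 (Acly) and 7.89 (Car3) on the log2(FPKM + 1) scale, with a median log2 fold change of −5.87. Over all 16068 genes tested the median was −0.0067, and 9.2% were called lower and 4.29% higher. AIA and Control libraries did not overlap for any of the 34, a pattern that 21.2% of all genes tested showed in that direction. Lep and Acvr1c did not reach 0.5 FPKM in 3 libraries and were not tested. With all 10 libraries, limma called 0 of 34 at an adjusted p under 0.05, in either direction, although the log2 fold change was below 0 for all 34, with a median of −3.73. At an unadjusted p under 0.05 there were 24 of the 34, against 4244 of all 17010 genes tested. Voom on the recovered reads called 0 of the 34, and limma called 0.0118% of the 17010 genes lower and as many higher. The difference rested on the library labelled Control 17, without which 33 of the 34 passed, against 958 of all 16574 genes tested. Without Control 15 the fit of 8 libraries, left with Control 16 as a lone Control library assumed to vary like the others, called 25 of the 34. The 9 genes lost were Retn, Cfd, Acly, Scd1, Pck1, Agpat2, Dgat1, Pnpla2 and Car3, with limma adjusted p between 0.0515 and 0.136.

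**Figure D3:**
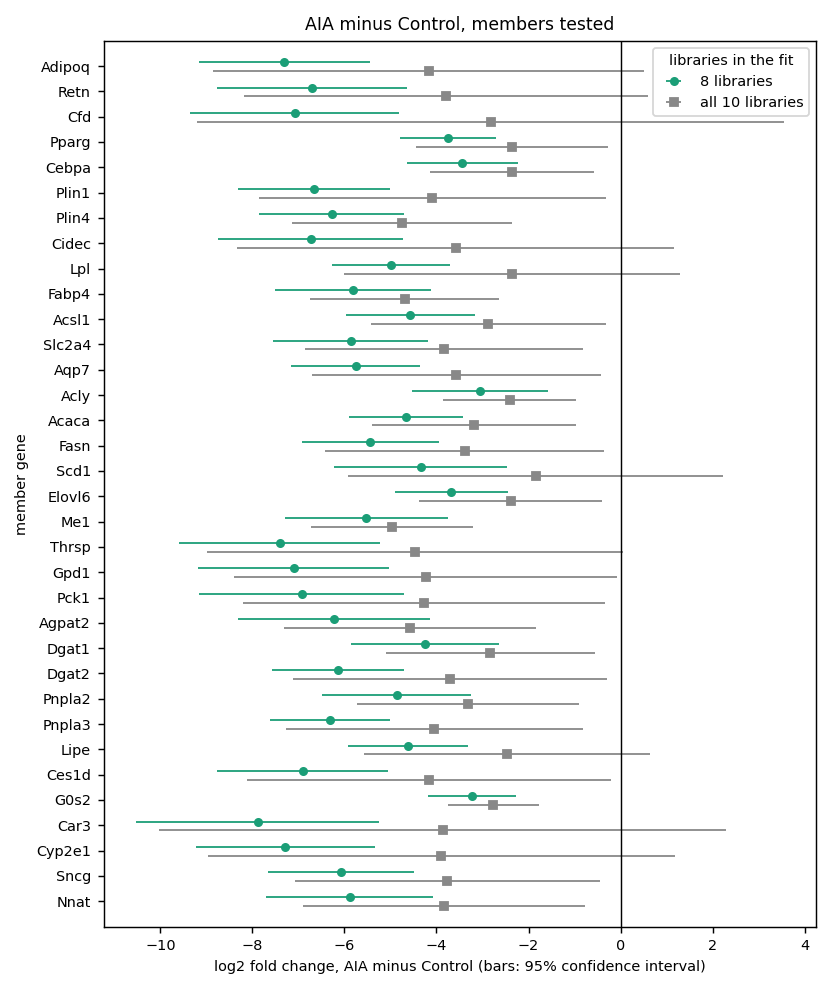
Log2 fold change, AIA minus Control, of the 34 fat genes tested, with 95% confidence intervals, in the limma fit of 8 libraries (circles) and of all 10 libraries (squares). In the fit of 8 libraries every interval lies below 0, from −7.89 for Car3 to −3.06 for Acly, and in the fit of all 10 the estimates are closer to 0 with wider intervals.

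In the sentences on single genes, the Acu values are those of Acu 6 and Acu 28, the AIA values those of AIA 5, 10, 31 and 38, and the Control values those of Control 15 and 16, in that order. Fold changes are log2 differences, AIA minus Control, from limma in the fit of 8 libraries unless all 10 are named.

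The 3 secreted proteins that could be tested all fell, and the leptin gene was too low to test. Adipoq encodes adiponectin, an insulin-sensitising hormone made almost only by adipocytes, on chromosome 16 of mm10 at 23146536 to 23158028 on the plus strand. Its level was 9.39 and 13.9 FPKM in Acu, 1.23, 1.66, 13.6 and 2.64 FPKM in AIA, and 1294 and 336 FPKM in Control. The libraries labelled Acu 4 and Control 17 had none. Adipoq fell by 7.30 (SE 0.81, limma adjusted p = 0.00293). With all 10 libraries, where the groups overlap through that labelled Control 17, it stood at −4.17 (SE 2.10, limma adjusted p = 0.242). Cfd encodes adipsin, the complement factor D protease, and was the most abundant of the 36 genes in both Control libraries. It had 89.9 and 171 FPKM in Acu, 12.9, 116, 149 and 25.2 FPKM in AIA, and 10449 and 4343 FPKM in Control, and fell by 7.08 (SE 0.99, limma adjusted p = 0.00481). Retn, which encodes resistin, in the mouse a product of adipocytes, had 5.90 and 7.67 FPKM in Acu, 0.216, 7.32, 10.1 and 1.38 FPKM in AIA, and 777 and 224 FPKM in Control. Retn fell by 6.70 (SE 0.91, limma adjusted p = 0.00417), and neither gene overlapped between AIA and Control. Leptin, the satiety hormone encoded by Lep, had 0.412 and 0.0891 FPKM in Acu, 0, 0, 0.0839 and 0.193 FPKM in AIA, and 66.6 and 8.41 FPKM in Control. These stand for 28 and 6 reads in Acu, 0, 0, 5 and 11 reads in AIA, and 3671 and 436 reads in Control, so that leptin was detected in 2 of 4 AIA libraries. A count of 0 allows up to 3 reads.

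Promoter windows from RefSeq (GRCm38.p6, 250 bases before to 50 after a start) were at hand for 27 of the 36 genes, and those of Lep and Adipoq are shown because these hormones mark the cell type. The windows were searched on both strands for 6 motifs, marked here in capitals: TATAAA, the CCAAT box (CCAAT), a C/EBP motif (TTGCNNAA), a PPAR motif (AGGTCA repeated after a gap of 1 base), an SREBP motif (TCACNCCAC) and an E-box (CACGTG). The window of Lep lies at chr6:29059971-29060270 on the plus strand and holds a C/EBP match that begins 55 bases before the start. The window of Adipoq lies at chr16:23146286-23146585 on the plus strand and holds 3 CCAAT boxes, 2 of them on the opposite strand.
Lep promoter: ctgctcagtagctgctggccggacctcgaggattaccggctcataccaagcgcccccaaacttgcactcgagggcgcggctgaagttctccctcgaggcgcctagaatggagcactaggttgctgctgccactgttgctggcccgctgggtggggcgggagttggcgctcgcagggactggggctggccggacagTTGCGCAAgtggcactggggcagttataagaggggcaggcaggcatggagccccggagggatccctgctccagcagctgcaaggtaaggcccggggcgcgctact
Adipoq promoter: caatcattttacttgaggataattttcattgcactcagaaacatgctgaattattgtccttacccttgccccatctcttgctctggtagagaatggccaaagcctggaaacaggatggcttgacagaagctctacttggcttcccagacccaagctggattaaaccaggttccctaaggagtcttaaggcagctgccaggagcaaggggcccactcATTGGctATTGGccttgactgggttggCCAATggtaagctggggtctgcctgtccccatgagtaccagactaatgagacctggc
A C/EBP match was found in 4 of the 27 genes (14.8%), against 12.2% of 27025 genes with a window. The other shares were 11.1% against 15.7% for TATAAA, 37.0% against 41.1% for CCAAT, 3.70% against 1.44% for the SREBP motif, present in Acsl1, and 3.70% against 8.09% for the E-box, present in Lipe. The direct repeat was in none of these windows and in 0.0481% of all genes.

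The transcription factor genes Pparg and Cebpa were expressed evenly among the AIA libraries. Pparg, the nuclear receptor that drives fat cell differentiation, lies on chromosome 6 at 115360951 to 115490399 on the plus strand. It had 1.79 and 1.97 FPKM in Acu, 2.05, 2.24, 2.02 and 2.17 FPKM in AIA, and 78.2 and 21.0 FPKM in Control, and it had 5.49 FPKM in the library labelled Acu 4 and 1.39 FPKM in the library labelled Control 17. The highest AIA library was 1.11 times the lowest, whereas Adipoq, a gene that PPARgamma activates, spread over 10.999 times. Pparg fell by 3.75 (SE 0.46, limma adjusted p = 0.00326), and stood at −2.37 in the fit of all 10 libraries, where the limma adjusted p was 0.162. Cebpa, its partner in fat cells and a factor of myeloid cells as well, had 22.3 and 26.0 FPKM in Acu, 24.5, 16.7, 20.54 and 19.2 FPKM in AIA, and 465 and 110.2 FPKM in Control. It fell by 3.44 (SE 0.53, limma adjusted p = 0.00654), and the AIA libraries differed by 1.46 times. The library labelled Control 17 had 23.4 FPKM, within the range of AIA. Acvr1c, which encodes ALK7, a receptor of the TGF-beta family in adipocytes, had 0.0584 and 0.155 FPKM in Acu, 0, 0.228, 0.121 and 0.0253 FPKM in AIA, and 6.68 and 1.32 FPKM in Control. Its groups did not overlap among these 8 libraries, and it was too low to be tested.

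Of the 3 Pparg windows, the one at an internal start, at chr6:115421816-115422115 on the plus strand, is shown because it is the one of the gene for PPARgamma that holds C/EBP matches. They begin 215 and 16 bases before the start, beside CCAAT boxes that begin 144 and 22 bases before it, and the nearer of each are 1 base apart.
Pparg internal promoter: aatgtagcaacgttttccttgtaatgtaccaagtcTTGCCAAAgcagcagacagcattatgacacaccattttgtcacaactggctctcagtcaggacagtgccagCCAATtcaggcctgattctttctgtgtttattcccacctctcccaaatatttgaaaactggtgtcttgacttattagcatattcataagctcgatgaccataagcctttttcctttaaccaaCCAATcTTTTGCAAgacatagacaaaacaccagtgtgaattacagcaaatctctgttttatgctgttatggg

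Genes of the droplet coat fell by similar amounts. Plin1 encodes perilipin 1, the gatekeeper of lipolysis on the adipocyte droplet, on chromosome 7 at 79720218 to 79732903 on the minus strand. It had 3.56 and 3.26 FPKM in Acu, 0.264, 0.607, 4.23 and 0.696 FPKM in AIA, and 464 and 92.1 FPKM in Control. Plin1 fell by 6.67 (SE 0.72, limma adjusted p = 0.00293), and it was listed at 0 in the library labelled Control 17. Cidec, which fuses small droplets into a large one, had 13.2 and 16.6 FPKM in Acu, 1.65, 8.41, 19.7 and 2.54 FPKM in AIA, and 1436 and 329 FPKM in Control, and fell by 6.73 (SE 0.88, limma adjusted p = 0.00376). Plin4, a perilipin that coats nascent droplets and is also made in muscle, had 4.35 and 4.69 FPKM in Acu, 0.201, 2.12, 3.83 and 0.591 FPKM in AIA, and 364 and 86.2 FPKM in Control. It fell by 6.27 (SE 0.69, limma adjusted p = 0.00293). Plin4 had 4.24 FPKM in the library labelled Acu 4 and 6.46 FPKM in the library labelled Control 17, where Plin1 and Cidec were at most at 0.203 FPKM. Its AIA and Control libraries therefore did not overlap even with all 10, where it stood at −4.74 (limma adjusted p = 0.0696). In that fit 6 of the 34 fat genes did not overlap and stood lower in AIA, namely Plin4, Fabp4, Acly, Me1, Agpat2 and G0s2, against 13.8% of all genes tested.

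The windows of Plin1, at chr7:79732727-79733026 on the minus strand, and Cidec, at chr6:113434715-113435014 on the minus strand, are shown as the other 2 genes with C/EBP matches. In Plin1 these begin 187 and 58 bases before the start, and in Cidec 198 bases before it.
Plin1 promoter: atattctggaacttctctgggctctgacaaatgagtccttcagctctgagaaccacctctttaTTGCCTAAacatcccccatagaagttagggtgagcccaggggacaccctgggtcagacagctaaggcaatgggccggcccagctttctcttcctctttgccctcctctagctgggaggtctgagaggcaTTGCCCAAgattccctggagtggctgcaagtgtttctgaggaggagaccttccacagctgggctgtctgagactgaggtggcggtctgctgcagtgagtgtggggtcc
Cidec promoter: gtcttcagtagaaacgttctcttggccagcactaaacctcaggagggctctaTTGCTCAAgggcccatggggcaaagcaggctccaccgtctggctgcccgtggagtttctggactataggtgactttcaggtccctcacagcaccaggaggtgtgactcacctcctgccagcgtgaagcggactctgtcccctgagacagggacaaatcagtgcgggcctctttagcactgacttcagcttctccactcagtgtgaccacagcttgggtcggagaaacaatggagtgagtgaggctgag

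Genes of uptake and binding fell as well, 5 of 5. Lpl, the lipoprotein lipase that frees fatty acids at the vessel wall, is made by muscle and macrophages as well as fat. It had 10.9 and 14.6 FPKM in Acu, 8.90, 9.20, 15.01 and 8.02 FPKM in AIA, and 724 and 164 FPKM in Control, and fell by 4.99 (SE 0.56, limma adjusted p = 0.00303). The AIA libraries differed by only 1.87 times, and 0.491 FPKM was measured in the library labelled Control 17. Fabp4, the fatty acid binding protein aP2 of adipocytes, which macrophages and capillary endothelium also make, had 40.1 and 70.5 FPKM in Acu, 26.3, 75.8, 75.6 and 19.3 FPKM in AIA, and 4421 and 1279 FPKM in Control. It had 118 FPKM in the library labelled Acu 4 and 234 FPKM in the library labelled Control 17, whose endothelial markers summed to 432 and 953 FPKM, and the part of endothelium in its level was not tested. Fabp4 fell by 5.82 (SE 0.74, limma adjusted p = 0.00345), and with all 10 libraries it stood at −4.69 (limma adjusted p = 0.0637). Its deposited length of 4489 bases equals its whole span with introns, which lowers its FPKM against a length of exons alone. Slc2a4, which encodes the insulin-regulated glucose transporter GLUT4 of fat and muscle, had 3.13 and 6.99 FPKM in Acu, 0.137, 0, 5.47 and 1.35 FPKM in AIA, and 159 and 86.0 FPKM in Control. It fell by 5.86 (SE 0.74, limma adjusted p = 0.00339), with AIA 31 the highest AIA library, as it was for the muscle markers. Acsl1, which activates fatty acids with coenzyme A, had 5.00 and 6.14 FPKM in Acu, 3.71, 2.35, 5.60 and 2.78 FPKM in AIA, and 242 and 44.4 FPKM in Control, and fell by 4.57, the least of the 5. Aqp7, the channel through which glycerol leaves the adipocyte, had 0.593 and 2.25 FPKM in Acu, 0.313, 0.437, 2.37 and 0.458 FPKM in AIA, and 181 and 47.4 FPKM in Control. It fell by 5.76 (SE 0.61, limma adjusted p = 0.00293).

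All 7 genes of de novo synthesis fell. Acly makes the acetyl-CoA of the cytosol and is used by many dividing cells. It had 36.5 and 19.3 FPKM in Acu, 13.1, 11.1, 21.5 and 25.5 FPKM in AIA, and 326 and 66.0 FPKM in Control. Acly fell by 3.06 (SE 0.65, limma adjusted p = 0.0199), the least of the 34. The call was lost without AIA 5 (limma adjusted p = 0.0522), and the AIA mean was 27.0% of Control 16. Acaca, which encodes acetyl-CoA carboxylase, had 3.11 and 2.26 FPKM in Acu, 0.862, 0.982, 2.70 and 1.67 FPKM in AIA, and 122 and 30.2 FPKM in Control, and it fell by 4.66. Fatty acid synthase, from Fasn, had 30.5 and 21.0 FPKM in Acu, 7.58, 25.5, 25.3 and 13.0 FPKM in AIA, and 1409 and 378 FPKM in Control. Fasn fell by 5.44 (SE 0.65, limma adjusted p = 0.00316). Scd1, the desaturase that makes monounsaturated fatty acids, was the most abundant fat gene in 2 AIA libraries and in Acu 6. Its values were 153 and 112 FPKM in Acu, 45.6, 57.7, 108 and 114 FPKM in AIA, and 4552 and 524 FPKM in Control. The 2 Control libraries differed by more than for most genes, and although Scd1 fell by 4.34 (SE 0.82, limma adjusted p = 0.0137), the call was lost without Control 15. In the fit of all 10 libraries it stood at −1.85, and at 0.17 when Control 15 was left out of these. Elovl6, which lengthens palmitate, had 3.44 and 1.75 FPKM in Acu, 1.26, 0.933, 2.62 and 1.67 FPKM in AIA, and 62.9 and 15.4 FPKM in Control, and fell by 3.67. Me1, the malic enzyme that supplies NADPH for synthesis, had 7.15 and 7.79 FPKM in Acu, 0.886, 3.12, 8.67 and 1.83 FPKM in AIA, and 406 and 73.7 FPKM in Control. It fell by 5.52, and it was high in both libraries with decidual genes, at 26.1 FPKM in the library labelled Acu 4 and 54.1 FPKM in the library labelled Control 17. Me1 had, with all 10 libraries, the lowest limma adjusted p of the list together with G0s2, 0.0546. Thrsp, or Spot 14, a nuclear protein that promotes lipogenesis, had 14.6 and 26.4 FPKM in Acu, 0.934, 7.98, 28.6 and 4.41 FPKM in AIA, and 2005 and 749.8 FPKM in Control. Thrsp fell by 7.41 (SE 0.96, limma adjusted p = 0.00357), the most of the synthesis genes.

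All 5 genes of triglyceride assembly and glycerol supply fell, and AIA values of Gpd1 and Pck1 were uneven. Gpd1, on chromosome 15 at 99717515 to 99725005 on the plus strand, makes glycerol 3-phosphate from glucose. It had 13.1 and 16.6 FPKM in Acu, 0.230, 1.70, 10.7 and 2.66 FPKM in AIA, and 1092 and 203 FPKM in Control, and fell by 7.10 (SE 0.91, limma adjusted p = 0.00350). AIA 31 held 46.5 times the Gpd1 of AIA 5, although AIA did not overlap with Control 15 or 16. Pck1, the cytosolic PEPCK, supplies glycerol 3-phosphate without glucose. It had 4.01 and 6.20 FPKM in Acu, 0.159, 0.540, 9.87 and 1.46 FPKM in AIA, and 800.0 and 125 FPKM in Control, a spread of 62.0 times within AIA. Pck1 fell by 6.92 (SE 0.97, limma adjusted p = 0.00483). Agpat2 adds the second fatty acid to the glycerol backbone, and its loss causes lipodystrophy. It had 10.4 and 12.2 FPKM in Acu, 5.79, 0, 9.36 and 5.83 FPKM in AIA, and 661 and 182 FPKM in Control, and fell by 6.23 (SE 0.91, limma adjusted p = 0.00547). Its value was listed at 0 in AIA 10, the library with the fewest genes above 0 (15116, against 21224 to 24411 elsewhere). Dgat1 and Dgat2 carry out the final step to triglyceride. Dgat1 had 5.36 and 8.395 FPKM in Acu, 7.72, 0.693, 6.26 and 4.12 FPKM in AIA, and 159 and 51.0 FPKM in Control, and fell by 4.25 (SE 0.70, limma adjusted p = 0.00848). Dgat2 had 7.69 and 9.49 FPKM in Acu, 2.83, 3.66, 10.3 and 4.10 FPKM in AIA, and 819.9 and 191 FPKM in Control, and fell by 6.14 (SE 0.62, limma adjusted p = 0.00276).

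Lipolysis genes fell too, with the inhibitor among them. Pnpla2, or ATGL, starts the breakdown of triglyceride in most tissues. It had 32.4 and 36.9 FPKM in Acu, 21.2, 7.74, 36.7 and 34.4 FPKM in AIA, and 1274 and 333 FPKM in Control, and fell by 4.87 (SE 0.71, limma adjusted p = 0.00544). G0s2, a small inhibitor of ATGL that is also active in neutrophils and other blood cells, had 4.47 and 7.44 FPKM in Acu, 9.47, 13.5, 8.14 and 8.98 FPKM in AIA, and 156 and 64.0 FPKM in Control. It fell by 3.23 (SE 0.42, limma adjusted p = 0.00357), and stood at −2.76 in the fit of all 10 libraries, at a limma adjusted p of 0.0546. Lipe, the hormone-sensitive lipase that acts next on diglyceride, had 7.11 and 10.8 FPKM in Acu, 5.18, 12.4, 10.8 and 6.74 FPKM in AIA, and 450.0 and 114 FPKM in Control, and fell by 4.62 (SE 0.57, limma adjusted p = 0.00328). Ces1d, a carboxylesterase that hydrolyses triglyceride in mouse fat, had 4.98 and 6.81 FPKM in Acu, 0.288, 1.12, 5.39 and 1.14 FPKM in AIA, and 758 and 114 FPKM in Control. Ces1d fell by 6.91 (SE 0.81, limma adjusted p = 0.00306). Pnpla3, a droplet enzyme that insulin induces, had 1.98 and 1.26 FPKM in Acu, 0, 0.570, 1.64 and 0.418 FPKM in AIA, and 243 and 61.3 FPKM in Control. It fell by 6.31 (SE 0.57), with a limma adjusted p of 0.00276, the same as for Dgat2 and the lowest of the list.

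The last 4 genes are abundant in fat without belonging to lipid storage itself. Car3, a carbonic anhydrase of adipocytes and slow muscle fibres, had 53.4 and 80.9 FPKM in Acu, 4.54, 6.19, 116 and 24.9 FPKM in AIA, and 7718 and 2485 FPKM in Control. Car3 fell by 7.89 (SE 1.15, limma adjusted p = 0.00547), the most of the 34. Cyp2e1, a cytochrome P450 best known from liver, had 13.5 and 26.8 FPKM in Acu, 2.34, 4.46, 23.2 and 6.46 FPKM in AIA, and 2478 and 553 FPKM in Control, and fell by 7.28 (SE 0.85, limma adjusted p = 0.00303). Sncg, the gamma-synuclein of fat and peripheral neurons, had 4.57 and 5.32 FPKM in Acu, 1.68, 4.56, 7.73 and 4.004 FPKM in AIA, and 806 and 139 FPKM in Control, and fell by 6.07. The imprinted gene Nnat, which encodes neuronatin and is known from neurons and fat, had 2.45 and 1.69 FPKM in Acu, 1.04, 4.34, 3.17 and 1.70 FPKM in AIA, and 596 and 63.2 FPKM in Control. It fell by 5.89, and its ratio of 9.43 between Control 15 and Control 16 was the widest of the 36. The summed nerve markers were also lower in AIA than in Control 15 and 16, and the part of nerve in Sncg and Nnat was not tested.

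The order of the libraries was much the same from gene to gene. Control 15 was the highest of all 10 libraries for 36 of 36 genes, by 1.85 times (Slc2a4) to 9.43 times (Nnat) over Control 16, with a median of 4.16. Within AIA, AIA 31 was the highest for 24 of the 36 and AIA 5 the lowest, ties counted, for 24. Among the exceptions were Cebpa and Dgat1, highest in AIA 5, and Pparg and G0s2, lowest in AIA 31. Between the Acu libraries, Acu 28 exceeded Acu 6 for 27 of 36. AIA 31 and Acu 28 were also the libraries with the most muscle markers of their groups, at 1616 and 2996 FPKM. Muscle markers ran the other way between Control 15 and Control 16, at 2800 and 11488 FPKM. They also did so between AIA 10 and AIA 38, at 223 and 302 FPKM against fat gene sums of 412 and 356 FPKM. The part of muscle in this order was not tested.

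Against Control 16 alone, the only Control library with lymphocyte markers, the AIA mean ranged from 0.823% (Lep) to 27.0% (Acly), with a median of 3.05%. It was under 5% for 23 genes, under 10% for 30 and under 20% for 35 of the 36. By role, the median was 1.58% for the secreted proteins, 1.95% for the droplet coat, 2.44% for the other genes abundant in fat and 2.73% for triglyceride assembly. It was 3.85% for uptake and binding, 5.15% for synthesis, 7.50% for lipolysis and 10.1% for the transcription factors and receptor. The highest shares were those of Acly, Cebpa, G0s2, Scd1, Elovl6 and Pparg. These are ratios to a single library and carry no test.

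**Figure D4:**
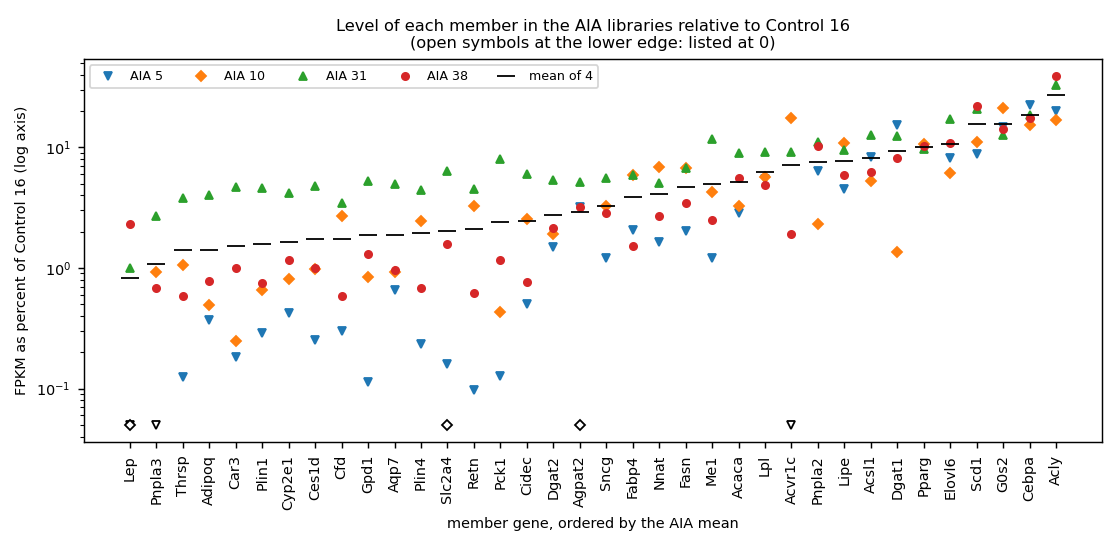
FPKM of each fat gene in AIA 5, AIA 10, AIA 31 and AIA 38 as a percent of Control 16 (log axis), ordered by the mean of the 4 libraries, shown as a bar, with open symbols at the lower edge for values listed at 0. The means run from 0.823% for Lep to 27.0% for Acly, AIA 31 lies at the top for most genes, and the 4 AIA libraries lie close together for Pparg, Cebpa and G0s2.

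Other genes of the same pathways were counted by the same test, against 9.2% of all genes tested called lower. None of the genes in these lists was called higher in AIA in the fit of 8 libraries, and none was called either way with all 10 libraries. Of the other adipocyte genes 10 of 10 tested fell, with a median of −5.48. Rbp4, the retinol carrier, fell by 6.91 (SE 0.79, limma adjusted p = 0.00303), at 3.31 and 3.88 FPKM in Acu, 0.210, 0, 5.03 and 0.998 FPKM in AIA, and 486 and 111 FPKM in Control. Hsd11b1, which regenerates active glucocorticoid, fell least, by 1.56 (SE 0.38, limma adjusted p = 0.0315), with 6.48, 4.50, 6.02 and 5.56 FPKM in AIA and 29.4 and 11.3 FPKM in Control. Both genes were far higher in the library labelled Acu 4, at 951 and 233 FPKM. In the library labelled Control 17, Rbp4 had 21.6 FPKM and Hsd11b1 116 FPKM, the latter also above Control 15 and 16.

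The share of genes that fell was smaller in the other pathway lists, to be read against 9.2% of all genes tested called lower. Of the other genes of triglyceride assembly and droplets 4 of 13 tested fell, with a list median of −1.28. Plin5, a perilipin of oxidative tissue, fell most, by 3.89 (SE 0.46, limma adjusted p = 0.00316), while Hilpda, a hypoxia-induced inhibitor of ATGL, stood at 0.46 (limma adjusted p = 0.366). Of the other lipolysis genes 5 of 8 fell. Mgll, which releases the last fatty acid, fell by 5.33 (SE 0.67, limma adjusted p = 0.00334). Of the other synthesis genes 8 of 14 fell, and the pyruvate carboxylase gene Pcx fell by 5.29 (SE 0.59, limma adjusted p = 0.00293), the most of the list. Fads2, a desaturase of polyunsaturated fatty acids, stood at −0.21 (limma adjusted p = 0.813). Among uptake genes 5 of 11 fell, the fatty acid transport protein Slc27a1 fell by 4.78, and the aquaporin Aqp3 stood at 0.97 (limma adjusted p = 0.0807). Among the other adipogenic transcription factors 2 of 9 fell, Klf15 by 3.93 and Zfp423 by 1.85, and the corepressor Tle3 stood at 0.30 (limma adjusted p = 0.521). Among receptors of fat hormones and insulin signalling 3 of 8 fell. Adipor2, an adiponectin receptor, fell by 2.98 (SE 0.78, limma adjusted p = 0.0401), and the insulin receptor substrate Irs2 stood at 0.60 (limma adjusted p = 0.263).

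The comparison of Acu with AIA addresses the effect of acupuncture in mice given the adjuvant. No fat gene was called, and the estimates leaned to higher values in Acu. In the fit of 8 libraries limma called 0 of 34, at an unadjusted p under 0.05 there was 1 (Gpd1), and voom called 0. Over all 16068 genes limma called 0 as well, with 478 at an unadjusted p under 0.05, and voom 0. The log2 fold change, Acu minus AIA, was above 0 for 31 of 34 with a median of 0.75, and it was below 0 for G0s2, Nnat and Pparg. Over all genes tested the median was 0.063, and 43.72% were below 0. The fat genes share their libraries, and their sum in AIA 31, 784 FPKM, was above those of Acu 6 and Acu 28, 624 and 767 FPKM. The limma adjusted p was at least 0.984 for all 34. With all 10 libraries limma called 0 of 34, voom called 0, and the median was 0.29 with 26 above 0. At an unadjusted p under 0.05 there were 0 of the 34, against 800 of 17010 genes tested.

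Gpd1 had the largest estimate, 2.19 (SE 0.91, 95% confidence interval 0.12 to 4.26, limma adjusted p = 0.984), with Acu 6 and Acu 28 both above the 4 AIA libraries. Plin4 and Agpat2 also stood above AIA without overlap, at 1.25 (95% confidence interval −0.32 to 2.83) and 1.39 (95% confidence interval −0.69 to 3.48). Groups did not overlap in this direction for 9.45% of all genes tested. For G0s2 and Pparg, Acu 6 and Acu 28 lay below the 4 AIA libraries, as for 7.67% of all genes. G0s2 stood at −0.67 (95% confidence interval −1.62 to 0.28) and Pparg at −0.11 (95% confidence interval −1.16 to 0.93). Adipoq stood at 1.56 (95% confidence interval −0.29 to 3.41) and Car3 at 1.84 (95% confidence interval −0.79 to 4.48), with AIA 31 inside or above the range of Acu for both. With adjusted p-values this high the groups are neither shown to differ nor shown to be alike. Muscle markers stood higher in Acu for 10 of 10, with a median of 2.77 and none called, and the part of muscle in these estimates was not tested.

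**Figure D5:**
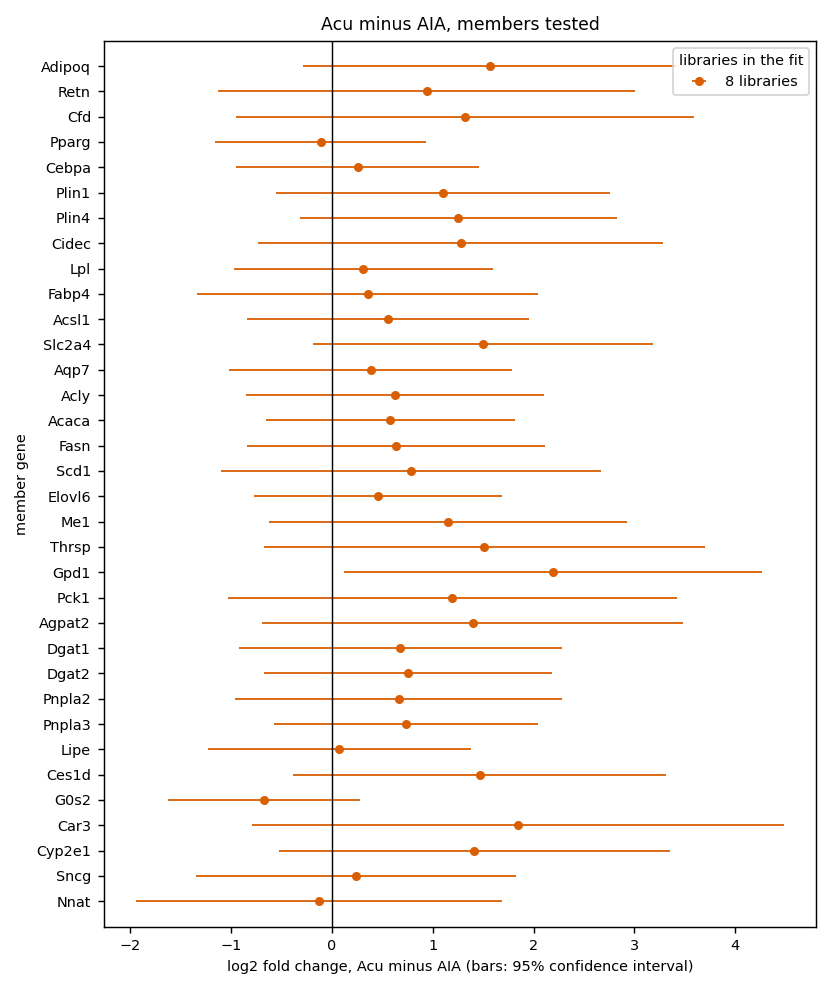
Log2 fold change, Acu minus AIA, of the 34 fat genes tested, with 95% confidence intervals, in the limma fit of 8 libraries. All intervals but that of Gpd1 (0.12 to 4.26) include 0, and the estimates run from −0.67 for G0s2 to 2.19 for Gpd1.

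Acu was also set against Control, which shares its Control libraries with the comparison of AIA. In the fit of 8 libraries 32 of 34 fat genes fell in Acu and none rose, against 3.52% of all genes tested called lower and 0.871% higher, with a median log2 fold change of −4.97. The lowest estimate was −6.04 for Car3 (limma adjusted p = 0.0431). Acly stood at −2.43 (SE 0.75, limma adjusted p = 0.105) and Scd1 at −3.56 (SE 0.95, limma adjusted p = 0.0738), and these were the 2 that did not pass. Adipoq fell by 5.74 (SE 0.93, limma adjusted p = 0.0197), Plin1 by 5.57, Pparg by 3.87 and Nnat by 6.01. All 34 stood lower in Acu 6 and Acu 28 than in Control 15 and 16, as did 28.9% of all genes. These calls were lost without Acu 6, without Acu 28 or without Control 15, fits that leave 1 library in a group, but not without Control 16, which does so as well. Limma called 0 of 34 when only Acu and Control were fitted. With an AIA library left out it called 20 (without AIA 38, 309 of 15872 genes) to 32 (without AIA 10, 2064 of 15843 genes). With all 10 libraries limma called 0 of 34 and 0 of 17010 genes, and voom called 0. At an unadjusted p under 0.05 there were 15 of the 34, against 1275 of the 17010 genes. Among the pathway lists, 9 of 10 other adipocyte genes, 5 of 14 synthesis genes and 4 of 8 lipolysis genes fell in Acu.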

How the data were processed

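Total RNA (Trizol) was made into libraries with the NEBNext Ultra kit, per the labels' protocols. The build mm10 and the tools DESeq2 1.16.1, featureCounts 1.5.0-p3, HISAT2 2.0.5 and StringTie 1.3.3b are named, with no role, per the submitters' processing notes. The authors deposited FPKM for 54987 genes per library with gene lengths and coordinates. Strandedness of the counting is not stated in these notes, so overlapping and antisense genes and near-identical copies such as the Ces1 and Scd families are uncertain. FPKM times length was a whole multiple of 1 step per library, within 0.01 of a step, for every gene above 0, and the multiples were used as recovered reads.

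FPKM were scaled by the median of ratios, which moved them by under 1%, and tested as log2(FPKM + 1), a scale that makes changes of low genes smaller. The scaling factor was 1 for every library over all 10, and 0.992 to 1.008 over the 8. The deposited FPKM thus already carried a scaling by the median of ratios over the 10 libraries, not by depth alone. Genes with at least 0.5 FPKM in at least 3 libraries of a fit were tested with limma 3.58.1 (mean-variance trend, R 4.3.3) over all groups of that fit, adjusted by Benjamini and Hochberg over all genes tested at a threshold of 0.05. SE is limma's moderated standard error. The fit was also run on simulated data drawn from a shared mean per gene, with changes set in AIA. Those data held no differences in tissue content and no libraries that go against their label, so that run does not bear on these. The 8-library fit leaves out the libraries labelled Acu 4 and Control 17. Alternatives were a pseudocount of 0.1, no filter, 2 other scalings, voom on recovered reads, only the 2 groups compared, and each library left out in turn. The genes, their role, pathway and marker lists, the libraries left out and the rule for genes named were chosen with earlier results of these data known. The rule takes all 36 genes and, from each pathway list, the genes with the largest rise and fall in AIA minus Control in the 8-library fit. A gene that the rule names is not reported here. Zfp423 was named after its value was seen, and so were the marker genes. Figures were drawn with Python 3.11.15 and matplotlib 3.10.9.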

Additional observations from a re-analysis of the deposited data

Results flagged for a closer look

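In 7 of the 36 fat genes the AIA group held a library far from the other AIA libraries, meaning that its gap to the nearest, over the group's range, passed Dixon's 95% critical value. In all 7 this was AIA 31, on the high side, and chance alone flags about 1 in 20 groups of independent values, whereas these genes share their libraries. AIA 31 had 13.57 FPKM of Adipoq, 4.226 FPKM of Plin1, 15.01 FPKM of Lpl, 2.369 FPKM of Aqp7, 9.866 FPKM of Pck1, 10.32 FPKM of Dgat2 and 5.394 FPKM of Ces1d. The next highest AIA library had 2.64 FPKM of Adipoq and 1.46 FPKM of Pck1, both in AIA 38. All 7 values of AIA 31 lay below those of Control 15 and Control 16. AIA 31 also held the most muscle markers of the AIA group, 1616 FPKM against 12.9 to 302 FPKM in AIA 5, AIA 10 and AIA 38, and the part of muscle or of fat beside the node was not tested. The groups of 3 were not examined in this way.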

How the results depend on the processing

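Counts of fat genes called by limma were recomputed under each alternative. The deposited FPKM were already scaled by the median of ratios, so the alternative without further scaling was nearly the main fit again. AIA against Control in the fit of 8 libraries gave 34 of 34 under a pseudocount of 0.1, other scalings, voom and only the 2 groups compared, 36 with no filter, and 25 to 34 with a library left out. With all 10 libraries it gave 0, but 3 when only the 2 groups were fitted, 34 without the libraries labelled Control 17 and Acu 4, and 0 to 33 with a library left out (33 without that labelled Control 17, 4 without that labelled Acu 4). Of all genes tested, limma called 784 of 15812 when only the 2 groups were fitted. It called 958 of 16574 without the library labelled Control 17 and 1707 of 16498 without that labelled Acu 4. Over all genes the 8-library count of 2167 was 485 without Control 15 and 3386 without AIA 10. Acu against Control gave 32 with 8 libraries, 13 with a pseudocount of 0.1, 23 with no filter, 24 with voom, 0 with only the 2 groups compared, and 0 to 34 with a library left out. With all 10 it gave 0, against 32 without the libraries labelled Control 17 and Acu 4, and 0 to 29 with a library left out. Of all genes tested, 706 of 16068 were called in the fit that gave 32. The 29 came without the library labelled Control 17, where 299 of 16574 genes were called. Acu against AIA gave 0 under every alternative run. The causes were not tested. Log2 fold changes that changed sign with a library left out are given with their range over these fits. Scd1 in AIA against Control with all 10 libraries ran from −4.33 to 0.17, and was above 0 without Control 15. The others were in Acu against AIA with 8 libraries. Fabp4 ran from −0.044 (without Acu 28) to 0.75 and Aqp7 from −0.13 (without Acu 28) to 0.90. Lipe ran from −0.20 (without Acu 28) to 0.34, with −0.13 without AIA 5 and −0.015 without AIA 38. Sncg ran from −0.073 (without AIA 5) to 0.50, and Nnat from −0.36 to 0.089 (without AIA 10), with 0.054 without Acu 28. Where leaving out a library left 1 in a group, that library was assumed to vary like the others. Lep and Acvr1c were too low to test except without a filter. No paired analysis was possible because the groups share no replicate numbers.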
